A study of Homo sapiens with 2 samples.

Results

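The 7 cyclin-dependent kinase (CDK) inhibitor genes, CDK4, CDK6 and cyclin D1 were followed in cells labelled Panc1 after 24 h with clofibrate or with DMSO. The members were all transcript rows of both array files whose gene name was CDKN1A, CDKN1B, CDKN1C, CDKN2A, CDKN2B, CDKN2C, CDKN2D, CDK4, CDK6 or CCND1, which gave 23 of the 45033 transcript rows and 10 of 23595 named genes. All 10 genes were on the array, and 17 of the rows belonged to inhibitors and 6 to CDK4, CDK6 and CCND1. Panc1 is an established line from a human pancreatic ductal carcinoma. The treated group was 1 array of total RNA from cells pretreated with clofibrate, a lipid-lowering fibrate and PPARalpha agonist, and the control was 1 array from cells pretreated with DMSO, the solvent. Both groups were grown in DMEM with serum, and the labels used here state no clofibrate dose. With 1 array per treatment no difference has a replicate check, no p-value or standard error can be given, and precision is limited by having so few arrays. In bulk RNA such as this, fewer cells of a kind and less RNA per cell cannot be told apart.

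These genes form the gate between growth signals and DNA replication. Cyclin D1 joins CDK4 or CDK6, and the complex phosphorylates the retinoblastoma protein RB, which then releases E2F transcription factors that switch on S-phase genes. The INK4 proteins p16 (from CDKN2A), p15 (CDKN2B), p18 (CDKN2C) and p19 (CDKN2D) bind CDK4 and CDK6 and keep cyclin D off them, while the CIP/KIP proteins p21 (CDKN1A), p27 (CDKN1B) and p57 (CDKN1C) bind cyclin-CDK complexes, mainly those of CDK2. Loss of CDKN2A is among the most common lesions of pancreatic ductal carcinoma.

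Levels are log2 intensities, and differences are log2 clofibrate minus DMSO. Each member row was a summary of 3 probes made by the authors, and a row of 5000 random probes gave a background of 5.59 on the clofibrate array and 5.61 on the DMSO array. Of the 23 member rows, 19 had a mean level at or above 8.65, the median of all rows, and are called bright here. Across all rows the arrays had a Pearson correlation of 0.982, a description over rows, which are not replicates. The median difference was 0.01 over all bright rows, and the middle 90% of bright rows lay between -0.45 and 0.45. Probes differ in how strongly they bind, so levels of different rows were not ranked against each other. Rows of a gene cover overlapping stretches of the same transcript and are not independent measurements, and where the probes lie within them is not stated in the files.

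The promoters of the members that turn up most in the results are shown first, as the 250 bases before the start site in the RefSeq table (GRCh38.p14), 5′ to 3′ on the strand of the gene. They were chosen because CDKN1A and CDK4 were higher in every row, and because CDKN2A has 2 start sites in that table. The choice therefore followed the measured differences. The CDKN2A starts in the table do not coincide exactly with the 5′ ends of the array rows, which are given on hg18. The table held windows for 8 of the 10 members and none for CDKN1C or CCND1. Capitals mark the GC box GGGCGG, bound by SP1-family factors, and the E-box CACGTG, bound by MYC and MAX, on either strand, and adjoining or overlapping matches run together.
CDKN1A, chr6:36678464-36678713, plus strand: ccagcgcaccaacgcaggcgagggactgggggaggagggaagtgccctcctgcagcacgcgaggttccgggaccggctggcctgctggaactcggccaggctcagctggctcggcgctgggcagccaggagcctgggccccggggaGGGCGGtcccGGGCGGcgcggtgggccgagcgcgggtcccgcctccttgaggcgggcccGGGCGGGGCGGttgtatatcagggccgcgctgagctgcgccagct
CDK4, chr12:57752311-57752560, minus strand: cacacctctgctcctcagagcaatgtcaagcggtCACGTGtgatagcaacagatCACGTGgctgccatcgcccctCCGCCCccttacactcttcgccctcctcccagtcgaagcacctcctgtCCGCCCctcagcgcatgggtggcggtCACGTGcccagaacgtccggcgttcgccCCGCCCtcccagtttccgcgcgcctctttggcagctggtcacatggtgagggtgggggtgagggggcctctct
CDKN2A distal start (ARF), chr9:21995325-21995574, minus strand: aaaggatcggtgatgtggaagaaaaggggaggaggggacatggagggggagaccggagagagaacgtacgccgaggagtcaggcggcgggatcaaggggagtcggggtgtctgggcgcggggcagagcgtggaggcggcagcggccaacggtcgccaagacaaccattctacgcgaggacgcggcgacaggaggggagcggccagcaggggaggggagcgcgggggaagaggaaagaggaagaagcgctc
CDKN2A proximal start (p16), chr9:21974858-21975107, minus strand: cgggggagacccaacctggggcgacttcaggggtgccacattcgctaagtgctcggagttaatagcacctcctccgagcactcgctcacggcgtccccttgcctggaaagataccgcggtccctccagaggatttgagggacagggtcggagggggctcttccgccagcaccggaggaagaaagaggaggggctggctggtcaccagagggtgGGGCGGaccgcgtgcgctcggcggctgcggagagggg

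The CDKN1A window held 4 GC boxes and no E-box. The CDK4 window held 3 E-boxes and 3 GC boxes. The distal CDKN2A window held neither motif, and the proximal window held 1 GC box and no E-box. Of all 35116 windows of this length in the table, 42.6% held a GC box and 6.34% an E-box, and the E2F motif, spelled TTTCCCGC, TTTCGCGC, TTTGCCGC or TTTGGCGC on either strand, was in 2.79% and in none of these 4. The motifs were not particular to the members shown. Windows of members that were lower or mixed held GC boxes too, with 2 for CDKN2B, 2 for CDKN2D and 3 in a CDK6 window, while the other CDK6 window held none. E-boxes also stood in windows of CDKN2C. A match is a description of the letters and not evidence that a factor was bound.

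Before the results, 2 features of the arrays are described. The first is CDKN2A itself, because Panc1 is recorded as carrying a homozygous deletion of this gene, and its probes nonetheless gave strong signal on both arrays. The row of the p16 transcript NM_000077 read 11.37 with clofibrate and 11.28 with DMSO, which put it at the 89.3rd percentile of all rows on the clofibrate array and at the 88.6th percentile on the DMSO array. It lay 5.78 above the random probes with clofibrate and 5.68 above them with DMSO. The row of the ARF transcript NM_058195 read 11.30 with clofibrate and 10.98 with DMSO, likewise far above background. The second is the markers of pancreatic duct: KRT19, a keratin of duct cells, read 5.12 with clofibrate and 5.65 with DMSO, at the level of the random probes, and the chloride channel gene CFTR read 5.58 with clofibrate and 5.44 with DMSO. These were the lowest of the duct markers, and as gene means the others lay above the random probes. EPCAM, for example, read 7.73 with clofibrate and 8.19 with DMSO. Of 42 duct marker rows, 3 were at or below the random probes on both arrays. Of 11 duct markers, 3 (KRT8, KRT18 and CA2) reached the median level over genes, and the medians of the list were 7.99 with clofibrate and 8.19 with DMSO. Markers of acinar, islet, hepatocyte and endothelial cells had no gene that reached it, and fibroblast and leukocyte markers had 2 each. The leukocyte list had medians of 6.43 with clofibrate and 6.70 with DMSO, with 3 of 6 genes above 0 and differences from -0.55 (ITGAM) to 0.86 (ITGB2); the part of other cell types in the results was not tested. The reason for these levels was not tested, and the cells are called Panc1 only as the labels give that name.

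The locus around CDKN2A was read as a whole. On chromosome 9 in hg18, the 6 CDKN2A rows had their low ends between positions 21957750 and 21958003. These are the 3′ ends, since the gene is on the minus strand. At the high, 5′ end, 3 rows reached about 21984490, called the distal start of the rows (NM_058195, U26727 and BC021998). The other 3 had their 5′ ends at or near 21965038, called the proximal start (NM_000077, NM_058197 and L27211). MTAP, a methionine salvage gene that is often lost together with CDKN2A, gave 9.71 with clofibrate and 9.95 with DMSO as the mean of 5 rows, so it too was above background on both arrays. CDKN2B, next to CDKN2A, had a bright row and a row at background. No row of MTAP or CDKN2A was at or below the random probes on either array.

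**Figure D1:**
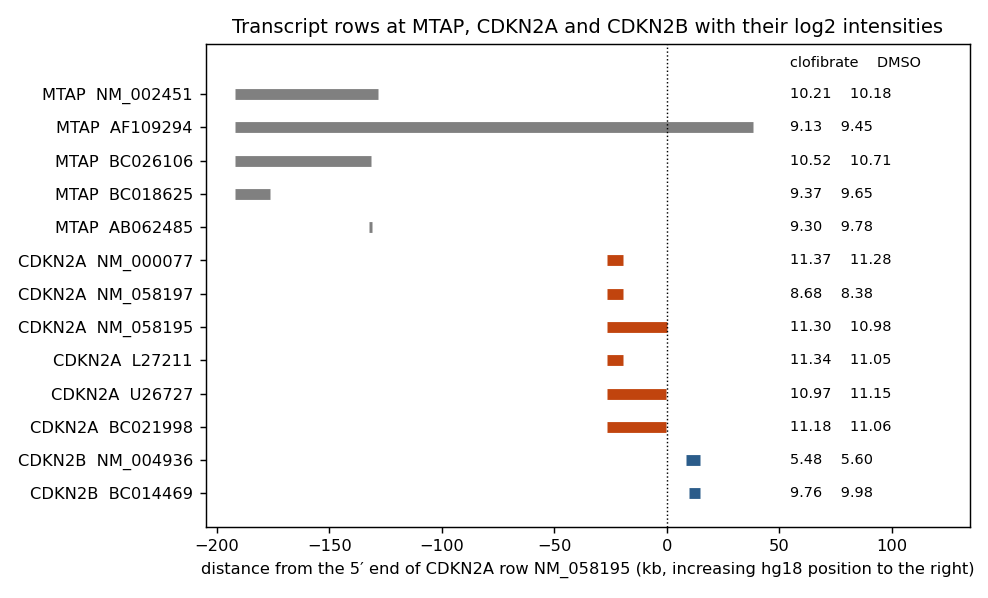
Transcript rows at MTAP (grey), CDKN2A (orange) and CDKN2B (blue), drawn to scale as the span of each row in hg18, with distance in kb from the 5′ end of the ARF row NM_058195 on the x axis. The numbers at the right are log2 intensities on the clofibrate array and the DMSO array; 5 of the 6 CDKN2A rows read between 10.97 and 11.37 on both arrays, and CDKN2B row NM_004936 reads 5.48 with clofibrate and 5.60 with DMSO.

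The study compared gene expression after clofibrate with that after DMSO. For the CDK inhibitors and their kinases the answer was small and mixed. Of 19 bright rows, 1 was at least 1.5-fold lower with clofibrate, the CDK6 row NM_001259, and none was at least 1.5-fold higher. The mean level of NM_001259, 8.69, was only just above the cut for bright rows. It passed through its DMSO value of 9.20, since its clofibrate value of 8.18 (42.6th percentile) was below that cut. Over all 22517 bright rows, 2.07% were at least 1.5-fold lower and 2.15% at least 1.5-fold higher, and 1 lower row among 19 is too few to tell from the background share. Of the bright member rows, 13 lay above 0 and 6 below (68.4% above 0), where 51.4% of all bright rows lay above 0. By gene, 5 members were above 0 and 5 below, with a median of 0.042, beside 0.0036 over all genes, of which 50.4% were above 0. The 10 genes therefore did not stand on a common side of 0.

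**Figure D2:**
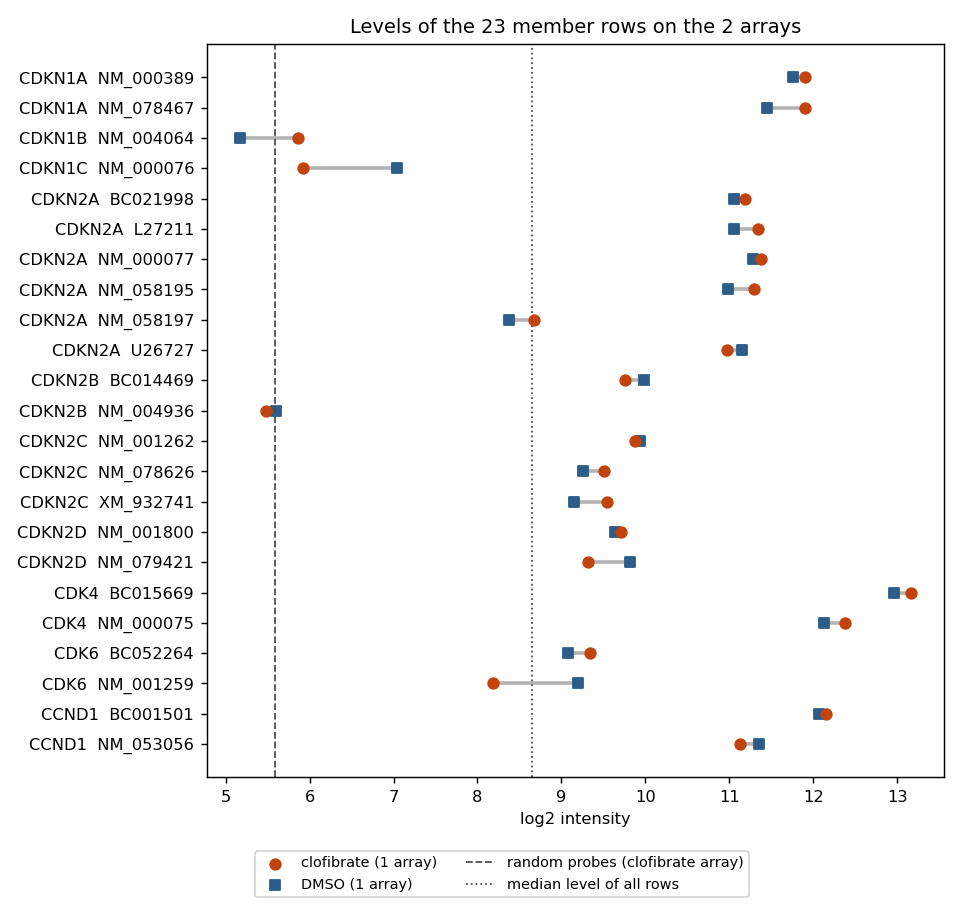
Log2 intensity of each of the 23 member rows (x axis) on the clofibrate array (circles) and the DMSO array (squares), 1 array each, with the random probes at 5.59 (dashed) and the median level of all rows at 8.65 (dotted). CDKN1B, CDKN1C and CDKN2B row NM_004936 lie near the random probes on the clofibrate array, and the grey line is longest for CDKN1C and for CDK6 row NM_001259.

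CDKN1A, whose product p21 inhibits cyclin-CDK complexes, was higher with clofibrate in both of its rows. Row NM_078467 read 11.90 with clofibrate and 11.45 with DMSO, a difference of 0.45 or 1.36-fold. Row NM_000389 read 11.91 with clofibrate and 11.76 with DMSO, a difference of 0.15 or 1.11-fold. Both rows have the same span in hg18 (chromosome 6, 36754464 to 36763087), so the gap of 0.30 between them arose within a single gene span. Of the 3564 genes with 2 bright rows, 32.7% had a gap at least as large, and the median gap was 0.20. Among the 1000 rows nearest in level, 5.5% differed in size by as much as NM_078467 and 53% by as much as NM_000389. As the mean of both rows CDKN1A differed by 0.30, and 32.0% of all genes differed by as much in either direction.

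CDKN1B, which encodes p27, the inhibitor that holds CDK2 in resting cells, was not measured well. Its single row NM_004064 read 5.86 with clofibrate and 5.18 with DMSO, and on the DMSO array this was under the random probes. Against those probes the row was at least 1.19-fold higher with clofibrate, while the values as measured differ by 0.68. At this level 19.6% of the 1000 nearest rows differed by as much. CDKN1C, the imprinted gene for p57, also had 1 dim row. It read 5.93 with clofibrate and 7.04 with DMSO, a difference of -1.12 or 2.17-fold lower with clofibrate (chromosome 11, 2861440 to 2863551). Both values were above the random probes, by 0.34 with clofibrate and by 1.44 with DMSO, and 8.6% of the nearest rows differed by as much. Neither row was bright, so neither entered the counts of bright rows.

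CDKN2A was slightly higher with clofibrate in 5 of its 6 rows, with a gene mean of 0.16. The p16 row NM_000077 differed by 0.09 and the p16 row L27211 by 0.29, with 11.34 on the clofibrate array and 11.05 on the DMSO array. Row NM_058197, the record of the p12 splice variant, read 8.68 with clofibrate and 8.38 with DMSO, a difference of 0.30, just under the bright set. These 3 rows share the proximal start and all lay above 0. Of the 3 rows that reach the distal start, NM_058195 differed by 0.32 and BC021998 by 0.13, while U26727 read 10.97 with clofibrate and 11.15 with DMSO, a difference of -0.18. The rows of both starts share the downstream exons, and no CDKN2A row left the middle 90% of the 1000 rows nearest to it in level.

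CDKN2B, whose product p15 is known as an inhibitor induced by TGF-beta, had 1 usable row. BC014469 read 9.76 with clofibrate and 9.98 with DMSO, a difference of -0.23, and 42.0% of the nearest rows differed by as much. Its other row, NM_004936, did not exceed the random probes on either array and has no fold. The record of NM_004936 ran 1.47 kb further at the low end of the gene, which on the minus strand is the 3′ end.

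CDKN2C, which encodes p18, lay on both sides of 0. Its row NM_001262 read 9.87 with clofibrate and 9.93 with DMSO, a difference of -0.06. NM_078626 read 9.51 with clofibrate and 9.25 with DMSO, and XM_932741, a model record that overlaps only the first part of the gene, read 9.55 with clofibrate and 9.15 with DMSO. NM_078626 thus differed by 0.26 and XM_932741 by 0.39, and all 3 rows lay within the middle 90% of rows of like level. CDKN2D, which encodes p19 of the INK4 family, had rows at -0.50 and 0.06: NM_079421 read 9.32 with clofibrate and 9.82 with DMSO, and NM_001800 read 9.71 with clofibrate and 9.64 with DMSO. The records have nearly the same span on chromosome 19 (2.52 and 2.50 kb), and the gap of 0.56 between them was equalled by 8.42% of genes with 2 bright rows.

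CDK4, the kinase partner of cyclin D1, was higher with clofibrate in both rows, and its rows agreed best of all members with more than 1 bright row. BC015669 read 13.16 with clofibrate and 12.96 with DMSO, a difference of 0.21. NM_000075 read 12.38 with clofibrate and 12.13 with DMSO, a difference of 0.25 (chromosome 12, 56428269 to 56432431). The gap between the rows was 0.04, and 88.1% of genes with 2 bright rows had a larger or equal gap. The difference itself was not large for this pair of arrays: 33.3% and 25.4% of the nearest rows differed by as much as these rows, and as a gene CDK4 was 1.17-fold higher with clofibrate.

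CDK6, the other D-cyclin kinase, had the widest disagreement among its rows. NM_001259 read 8.18 with clofibrate and 9.20 with DMSO, a difference of -1.01 or 2.02-fold lower with clofibrate (chromosome 7, 92072170 to 92301148). BC052264 read 9.34 with clofibrate and 9.08 with DMSO, a difference of 0.26. The gap of 1.27 was equalled or passed by 0.309% of genes with 2 bright rows, and 1.7% of rows of like level differed by as much as NM_001259. The records share their upper end, and NM_001259 ran 9.55 kb further at the low end, the 3′ end of this minus-strand gene. The mean of -0.38 thus averaged rows of opposite sign, and with the brightest row alone CDK6 was at 0.26.

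CCND1, which encodes cyclin D1, was close to 0. BC001501 read 12.16 with clofibrate and 12.07 with DMSO, a difference of 0.09. NM_053056, whose record ran 3.02 kb further at the high end of the gene, read 11.13 with clofibrate and 11.36 with DMSO, a difference of -0.23. Both CCND1 rows stayed within the middle 90% of rows of like level.

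**Figure D3:**
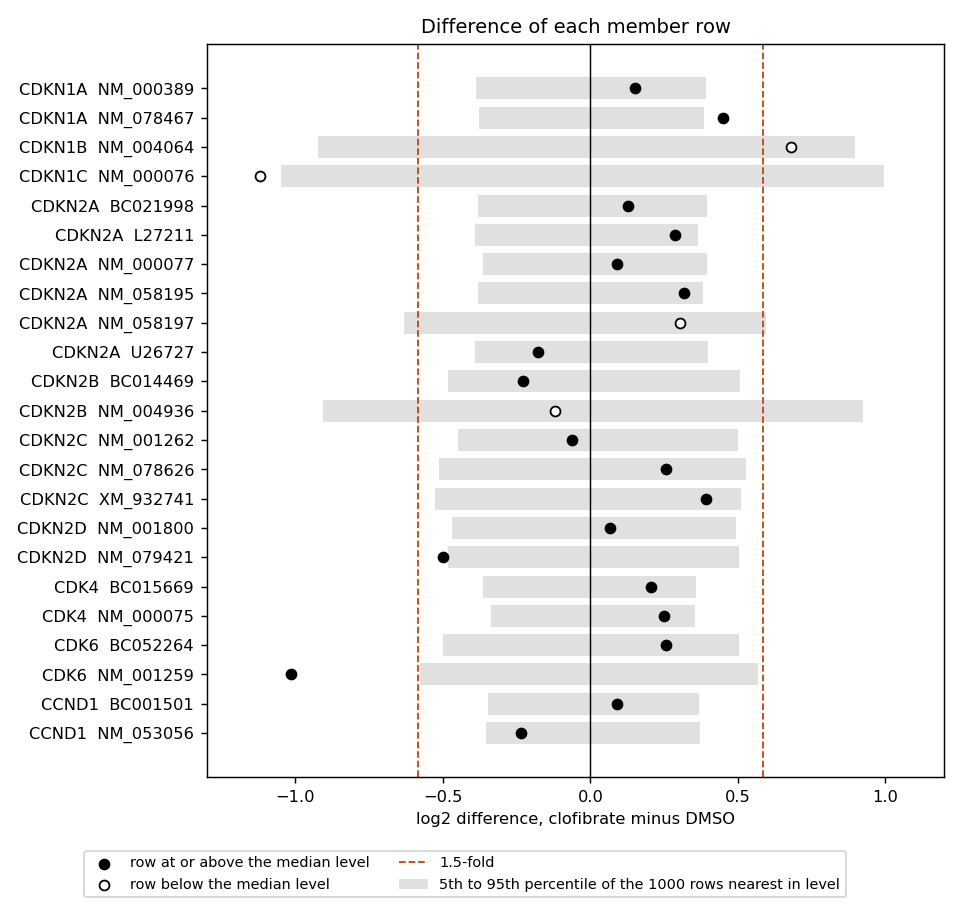
Log2 difference (clofibrate minus DMSO) of each of the 23 member rows, with filled points for rows at or above the median level, hollow points for rows below it, and grey bars for the 5th to 95th percentile of the 1000 rows nearest in level. Dashed lines mark 1.5-fold; CDK6 row NM_001259 at -1.01 is the only filled point beyond them, and CDKN1A row NM_078467 at 0.45 and CDKN2D row NM_079421 at -0.50 lie just outside their bars, as does the hollow point of CDKN1C at -1.12.

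The other genes of the pathway were read from lists, beside the 51.4% of all bright rows that lay above 0 and the 2.07% and 2.15% that were at least 1.5-fold lower or higher. The remaining D, E and A cyclins and their kinases hardly differed: 4 of 15 bright rows lay above 0, none was 1.5-fold different, and the median of 8 genes was -0.02. CCND2 was at 0.01 (11.18 with clofibrate and 11.16 with DMSO), CCND3 at 0.02 (9.96 with clofibrate and 9.94 with DMSO) and CDK2, the partner of cyclins E and A, at -0.04. Cyclin E genes were a little lower, with CCNE2 at -0.19 in the mean of 3 rows and CCNE1 at -0.07.

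RB-family and E2F genes lay mostly below 0. None of 5 bright RB-family rows lay above 0, with RBL1 (p107) at -0.34, RBL2 (p130) at -0.25 and RB1 at 0.01, the last as the mean of a dim row at 0.18 and a bright row at -0.17. Of 18 bright rows of E2F and DP genes, 3 lay above 0 and the median of 10 genes was -0.10. E2F1, the activator that RB restrains, read 9.97 with clofibrate and 10.22 with DMSO, a difference of -0.25, E2F5 was at -0.26, and TFDP1, the dimer partner of E2F factors, was at 0.22. Among E2F target genes, 16 of 44 bright rows lay above 0 and the median of 24 genes was -0.07, with MCM6 at -0.36, POLA1 at -0.36 and RRM1 at -0.29; CCNE1 and CCNE2 are in this list too. No row of these 3 lists was 1.5-fold different, so each list was described by small differences that leaned below 0.

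Genes that control the stability and assembly of the complexes showed the same lean. Of 30 bright rows of genes for the turnover of inhibitors and cyclin D, mostly ubiquitin ligase subunits together with GSK3B, CKS1B and CKS2, 8 lay above 0, and the median of 15 genes was -0.18. Rows of the cullin genes CUL1 (U58087, -0.61) and CUL4A (BC008308, -0.72) were at least 1.5-fold lower, 2 of 30 rows beside the 2.07% of all bright rows. This count is also too few to tell from the background share, and the other CUL1 row, NM_003592, was at -0.21. CUL1 averaged -0.41 and its ring partner RBX1 was at -0.34, CUL4A averaged -0.30 with rows from -0.72 to 0.12, and SKP2, the subunit that recognises p27, was at -0.02. For CDK assembly and activation, 5 of 19 bright rows lay above 0 and the median was -0.10. HSP90AB1, a chaperone that holds CDK4 before cyclin binding, was at -0.32, the phosphatase gene CDC25C at 0.25 and the CDK-inhibiting kinase gene WEE1 at -0.16. The WEE1 mean joined a row at -0.34 and a brighter row at 0.02.

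Among the factors that control CDK inhibitor genes, 11 of 37 bright rows lay above 0, none was 1.5-fold different, and the median of 23 genes was -0.05. The genes of the list with the largest differences among those that reach the median level were CBX7 at -0.37, SUZ12 at -0.28 and EZH2 at -0.28, which encode Polycomb proteins. The SUZ12 rows were at -0.48 and -0.08. Other Polycomb genes of the list differed less, with BMI1 at -0.16 and EED at -0.01 (rows from -0.30 to 0.24). MAX, which is not a Polycomb gene, was at -0.27, and KLF6, at -0.38, fell just short of the median level.

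Proliferation markers were split, with 18 of 28 bright rows above 0 and a gene median of 0.00. CENPF was at -0.40, MKI67 at -0.32 and the mitotic kinase gene PLK1 at 0.29. No proliferation marker row was 1.5-fold different. Around CDKN2A on chromosome 9, KLHL9 was at -0.29, MTAP was at -0.24 and ELAVL2 was at 0.01. The KLHL9 row BC039133, at -0.59, was 1.51-fold lower, and the other KLHL9 rows were at -0.07 and -0.21. Of 9 bright rows of these neighbouring genes, 2 lay above 0 and 1 was at least 1.5-fold lower. Beside the 2.07% of all bright rows, that is too few to tell from the background share.

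**Figure D4:**
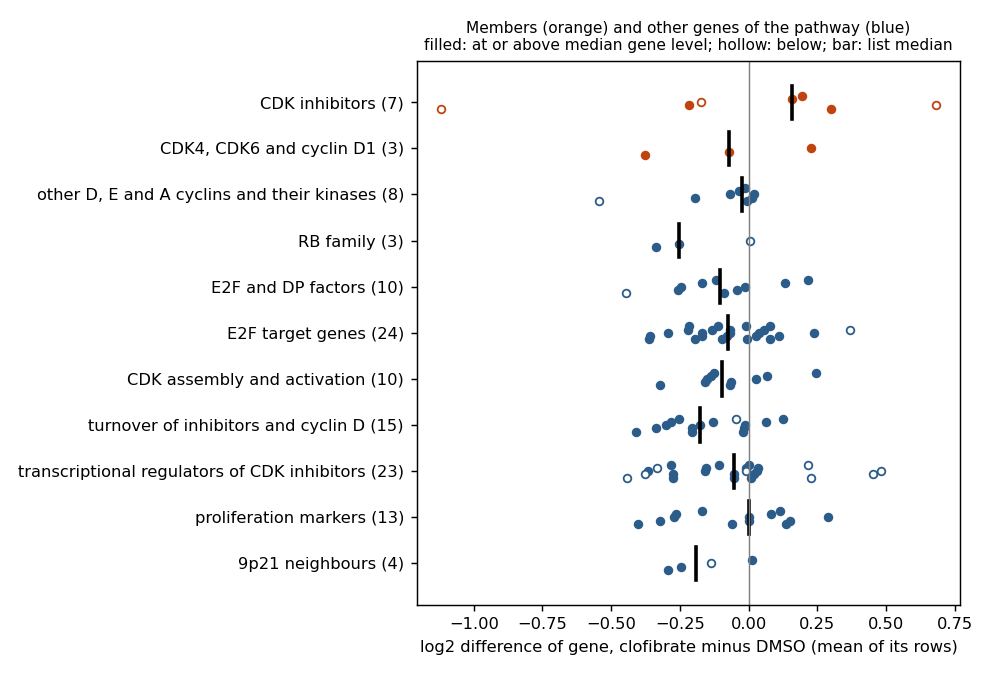
Log2 difference (clofibrate minus DMSO) of each gene, as the mean of its rows, by list, with the number of genes in brackets, members in orange, other genes in blue and a black bar at each list's median. Filled points are genes that reach the median level over genes and hollow points lie below it; the bar of the list for turnover of inhibitors and cyclin D stands at -0.18 and that of the RB family at -0.25, and the 2 points furthest out are CDKN1C at -1.12 and CDKN1B at 0.68, both hollow.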

How the data were processed

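The deposited files give 1 linear intensity per transcript row, summarised by the authors; per the submitters' processing notes this was RMA (version not given in the sources used here). Since RMA commonly equalises arrays, a change common to most genes could be hidden. Per the file headers and rows, positions are on hg18 and 45031 of 45033 rows rest on 3 probes. The series value table held the same intensities.

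Intensities were converted to log2. Members were matched by the gene name in the files; other genes by gene ID to current symbols in a RefSeq table (GRCh38.p14; 38916 rows matched), else by the file's name. A gene was the mean of its rows. With 1 array per treatment no test was run. Each row's difference was set beside the 1000 rows nearest in mean level, and calls were counted at 1.5-fold among rows at or above the median level. Where 1 value of a row was at or below the random probes, a nominal fold was taken against those probes, and where both were, no fold was given. The members and lists were chosen with earlier results of these data known. All members were named, and from each other list the 3 genes with the largest differences among genes at or above the median level, plus CCND2, CCND3, CDK2, RB1, E2F1, SKP2 and MTAP; some further items are not reported here. No genes of similar pattern were sought, because 2 values per gene cannot rank likeness. CDKN2B-AS1 was listed and not measured here. Alternatives covered scaling, level filter, fold, row choice and background floor. Scripts were tested on simulated data. Values were computed in Python 3.11.15 with pandas 2.3.3, numpy 2.4.6 and statsmodels 0.14.6 (lowess, fraction 0.3), and plotted with matplotlib 3.10.9.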

Additional observations from a re-analysis of the deposited data

How the results depend on the processing

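Of 19 bright member rows, the main counts were 0 higher and 1 lower at 1.5-fold. These counts were the same with median centring, quantile normalization, loess on mean level, the series value table, the 2-fold threshold and, as a setting chosen after seeing the data, subtraction of a loess trend along transcript span. With the level filter at the 75th percentile, CDK6 row NM_001259 was not counted and the lower count was 0. With no level filter 1 row was higher (CDKN1B) and 2 were lower (CDK6 and CDKN1C), and with rows above the random probes 2 were lower. At the lower fold threshold tried, 2 rows were higher and 2 lower. The median of the member genes lay between -0.073 and 0.089 over the alternatives, and the lowest value, -0.073, came from leaving out rows at background, which removes CDKN1B. Of 79 member differences recomputed, 4 crossed 0, all with the brightest row of each gene: CDK6 (0.26), CDKN2C (-0.06), CDKN2D (0.06) and CCND1 (0.09). Many of the 79 could not move, so this share does not measure how stable the signs were. The series value table held the same intensities, and settings tied to the random probes leave rows above those probes unchanged. The brightest-row choice could alter only members with more than 1 row, which leaves out CDKN1B and CDKN1C. CDKN1A and CDK4 stayed above 0 under every alternative run, CDKN1A between 0.15 and 0.30 and CDK4 between 0.18 and 0.23. After removal of the span trend the medians were -0.13 for the turnover list, -0.21 for the RB family and -0.12 for E2F and DP genes. No paired analysis was possible because there was a single array of either treatment, which also leaves no replicate to drop.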

Other observations

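Several regulators of CDK inhibitor genes below the median level differed by more than the brighter members of their list. These genes were picked after their values were seen and carry no replicate check. Dim rows also spread more widely. For rows nearest in level to ELAVL2 row BC030692, at 7.25, the 5th and 95th percentiles were -0.87 and 0.81. For those nearest to RB1 row M19701, at 8.01, they were -0.65 and 0.69. The rows of ID1, KLF4 and KLF6 lay within both ranges, and the ETS2 row at 0.97 lay outside them. ID1, whose product restrains ETS-driven transcription of CDKN2A, read 7.58 with clofibrate and 7.10 with DMSO, a difference of 0.48, with rows at 0.43 and 0.53. ETS2 was at 0.45, but its rows were far apart, at 0.97 and -0.06. KLF4, an activator of CDKN1A, read 8.02 with clofibrate and 8.46 with DMSO, a difference of -0.44, with rows at -0.46 and -0.42. KLF6 was at -0.38, with rows at -0.43 and -0.32.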
